A study of Homo sapiens with 11 samples.

Results

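The genes described here were the mitochondrial carriers with UCP2, the protein import machinery and the voltage-dependent anion channels (VDAC). The rule that chose them reads only the symbol: every gene whose name in the array annotation starts with SLC25A, with UCP and a digit, or with TIMM, TOMM or VDAC. This gave 75 genes with 105 probes, namely 47 carriers, 24 import genes, 2 VDAC channels (VDAC1 and VDAC3) and 2 transcripts named after a carrier that are an antisense RNA and a pseudogene (SLC25A21-AS1 and SLC25A51P4). A probe entered the comparison when its detection p, a comparison with the array's negative control beads, was under 0.01 on at least 5 of 11 arrays. That left 58 genes with 73 probes: 34 carriers, 22 import genes and both VDAC channels. They are 58 of the 9653 genes tested in all.

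Each sample was total RNA of HEK293T cells, a line of human embryonic kidney origin that takes up DNA readily, read on its own Illumina HT12 beadchip array. The cells had been transfected with lipofectamine and carried mutant DFNA5 (mutDFNA5, 6 arrays), a cDNA of the form that causes a dominant hearing loss, or wild type DFNA5 (wtDFNA5, 5 arrays). DFNA5, now named GSDME, encodes a gasdermin. The study used these arrays to look for the routes by which the mutant kills cells, and took wtDFNA5 as reference. A further wtDFNA5 sample failed quality control in the study, and no array of cells with an empty vector was analysed here. Either construct can therefore be the source of a difference. Transfection was transient, and the share of cells that took up a construct is not given in the sources used here. The labels name the mutant samples KO in their titles, although no gene was deleted as far as they say. They place the harvest at 6 h after transfection in one field and the RNA extraction at 12 h in another.

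Background on these proteins is as follows. The inner membrane of the mitochondrion is closed to most solutes, and carriers of the SLC25 family move nucleotides, phosphate, carboxylates, amino acids, cofactors and protons across it, while VDAC channels let the same solutes through the outer membrane. Nearly all mitochondrial proteins are made in the cytosol. They enter through the TOM complex of the outer membrane, after which the TIM23 complex takes those with a presequence and the small TIM chaperones with the TIM22 complex insert the carriers themselves. Mitochondria are also where many forms of cell death are decided, by release of proteins through the outer membrane or by opening of a permeability pore.

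Between 14029 and 15443 of 42000 probes were detected per array. After normalization the lowest signal that counted as detected lay between 7.36 and 7.46 on the log2 scale, depending on the array. Of markers of the HEK293 line, NEFL, NEFM, INA, VIM and KRT18 were detected on all 11 arrays, whereas KRT8 and PAX2 were detected on none. NEFM was higher in mutDFNA5 by 0.75 (adjusted p = 8.91e-07), the other 4 detected markers were not called, and whether this has a part in any result was not tested. Markers of blood, liver and connective tissue were undetected on every array except COL1A1 (2 mutDFNA5 arrays) and 1 probe of DCN (1 wtDFNA5 array). One probe read the transfected gene, GSDME. It gave 8.05 ± 0.20 (SD, n = 6) in mutDFNA5 and 8.02 ± 0.22 (SD, n = 5) in wtDFNA5. Where that probe lies relative to the cDNA is not given in the sources used here, so it does not check the labels.

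Most of these genes differed little between the constructs. Of the 58 tested, 4 were lower in mutDFNA5 (UCP2, SLC25A42, SLC25A1 and TIMM29), 0 were higher and 54 did not pass the test (limma, Benjamini-Hochberg adjusted p under 0.05 over all 14542 probes). At an unadjusted p under 0.05 there were 8 lower and 4 higher genes, and the share of all genes at that threshold is not given here. At the adjusted threshold, 4.92% of all 9653 genes were called lower and 4.05% were called higher. The 4 called genes are 6.9% of the 58, a share near that background, so the count says nothing particular about these genes. When arrays were only shifted to the same median (median scaling) and not quantile normalized, 0 of the 58 genes were called in either direction. Of all 9653 genes, that setting called 54 lower and 270 higher. Its median was taken over all 42000 probes, most of which were not detected. The values are signals relative to each array's own distribution, in bulk RNA. A lower level per cell and fewer cells with the transcript cannot be told apart.

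The 4 called genes are shown array by array in the plot of their signals. The set holds 3 carriers and 1 import gene, and their changes lay between -0.39 and -0.31 on the log2 scale.

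**Figure D1:**
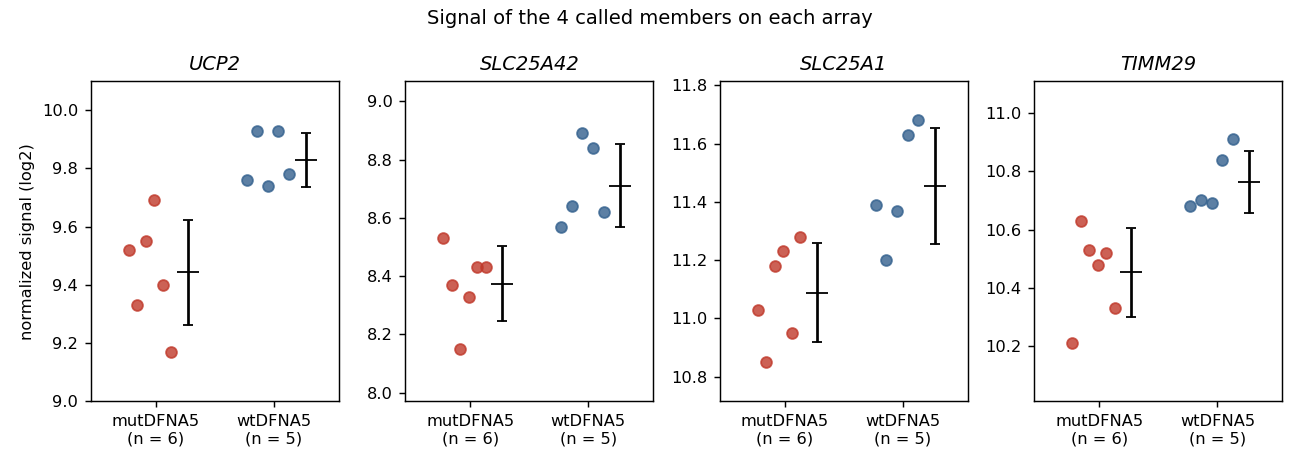
Normalized log2 signal (vertical axis, a separate range for each gene) of UCP2, SLC25A42, SLC25A1 and TIMM29 on each array, mutDFNA5 left (6 arrays) and wtDFNA5 right (5 arrays). Points are arrays, and the bar beside them is the mean with 1 SD. The groups are apart for UCP2, SLC25A42 and TIMM29, and overlap for SLC25A1.

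The promoters of the 3 called carriers are given because each of these genes was called lower. Whether they share a control was not tested. Each is the run of 250 bases before the first start that RefSeq annotates for the gene (GRCh38.p14), written 5′ to 3′ on the gene's own strand. Capitals mark every GC box (GGGCGG, the core bound by SP1) and every CCAAT box (CCAAT), on either strand.
UCP2, chr11:73983203-73983452, minus strand: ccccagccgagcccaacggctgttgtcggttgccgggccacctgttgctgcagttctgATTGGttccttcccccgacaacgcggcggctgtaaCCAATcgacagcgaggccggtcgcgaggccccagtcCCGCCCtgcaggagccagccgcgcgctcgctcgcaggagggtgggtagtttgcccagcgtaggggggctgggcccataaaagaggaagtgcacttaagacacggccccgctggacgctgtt
SLC25A42, chr19:19063744-19063993, plus strand: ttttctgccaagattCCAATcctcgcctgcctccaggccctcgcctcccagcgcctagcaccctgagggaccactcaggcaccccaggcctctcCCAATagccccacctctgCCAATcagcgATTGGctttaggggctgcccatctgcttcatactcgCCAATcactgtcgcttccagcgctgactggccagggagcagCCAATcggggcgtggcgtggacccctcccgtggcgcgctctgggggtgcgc
SLC25A1, chr22:19178737-19178986, minus strand: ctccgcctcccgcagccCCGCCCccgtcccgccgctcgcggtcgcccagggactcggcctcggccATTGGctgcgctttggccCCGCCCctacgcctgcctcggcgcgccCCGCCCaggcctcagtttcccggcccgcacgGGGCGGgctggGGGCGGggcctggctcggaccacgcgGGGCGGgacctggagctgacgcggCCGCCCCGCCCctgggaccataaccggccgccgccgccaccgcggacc

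The 3 windows differ in what they hold. In UCP2 there was 1 GC box, 121 bases before the start, and 2 CCAAT boxes, at 192 and 157 bases. SLC25A42 held 6 CCAAT boxes and 0 GC boxes. SLC25A1 held 8 GC boxes and 1 CCAAT box, in a window of 81.6% G and C. UCP2 has a second annotated start, whose window lies inside the gene and is not shown. That window held 3 GC boxes and 0 CCAAT boxes. The window of TIMM29 runs into the gene YIPF2 and is not shown either. It held 1 GC box and 1 ETS core (CCGGAAG), at 240 and 89 bases before the start. A GC box was found in 68.3% of the 41 windows of tested carriers and in 65% of the 20 windows of tested import genes, against 42.6% of all 35116 windows of this length. A CCAAT box was found in 41.5% of carrier windows and 35% of import windows, against 32% of all. The core of ETS factors such as GABPA (CCGGAAG, both strands) was in 22% of carrier windows and 40% of import windows, against 8.52% of all. The NRF1 core (GCATGCGC) was in 0 carrier windows and in 10.0% of import windows, against 2.63% of all. The EGR1 site (GCGNGGGCG, which can overlap a GC box) was in 14.6% of carrier windows and 0 import windows, against 8.41% of all, and the cAMP response element (TGACGTCA) in 4.88% and 0, against 1.65% of all. None of the ETS, NRF1, EGR1 or cAMP letters stands in the 3 windows shown. Tested carriers and import genes had richer windows than the rest, with a median G and C content of 66.8% and 63.4% against 58.0% for all windows, so these shares are a description of letters and not of binding. The member windows are those of genes that passed the detection filter, while all windows include genes that did not, so the sets are unlike.

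UCP2, an inner membrane carrier of the uncoupling protein family that has been linked to the control of reactive oxygen species, had the smallest p of all 58 genes. Its log2 signal was 9.52, 9.33, 9.55, 9.69, 9.40 and 9.17 on the mutDFNA5 arrays, against 9.76, 9.93, 9.74, 9.93 and 9.78 on the wtDFNA5 arrays. Every mutDFNA5 array was below every wtDFNA5 array, a separation that 6.62% of all genes tested showed in one direction or the other. The means were 9.44 ± 0.18 (SD, n = 6) in mutDFNA5 and 9.83 ± 0.09 (SD, n = 5) in wtDFNA5, which is -0.39 (95% confidence interval -0.57 to -0.21), or 1.31-fold lower (limma, adjusted p = 0.00769). No single array carried this call, since the adjusted p stayed between 0.00349 and 0.025 with any 1 array left out. Median scaling ended it (log2 change -0.29, adjusted p = 0.154). The study picked UCP2 from these arrays, among human homologs of yeast genes, so its direction here is not independent evidence. The study also reports real-time rtPCR of this gene in transfected cells. There it was lower with the mutant, without significance at the time point of the arrays, and was still lower at later time points. The study calls the decrease at the last time point significant, although the p it prints is above the level that its figure marks. Those measurements are not part of the data used here.

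The relatives of UCP2 were at or below the limit of detection. SLC25A27 (UCP4), a brain form, was detected on 2 of 6 mutDFNA5 and 4 of 5 wtDFNA5 arrays, at 7.34 ± 0.17 (SD, n = 6) and 7.46 ± 0.12 (SD, n = 5), and was not called (log2 change -0.11, adjusted p = 0.471). UCP1, which makes heat in brown fat, was not detected on any array. Of the 3 probes of UCP3, the muscle form, 1 was detected on 3 mutDFNA5 arrays and 0 wtDFNA5 arrays, with a difference of 0.17 when the filter was dropped (adjusted p = 0.479). SLC25A30 was detected on 2 mutDFNA5 arrays and 1 wtDFNA5 array. UCP2 was thus the only uncoupling protein among these probes with a signal above background on all 11 arrays.

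SLC25A42, which brings coenzyme A into the matrix in exchange for adenine nucleotides, had log2 signals of 8.53, 8.37, 8.15, 8.33, 8.43 and 8.43 in mutDFNA5, against 8.57, 8.64, 8.89, 8.84 and 8.62 in wtDFNA5. The groups did not overlap, although the highest mutDFNA5 array and the lowest wtDFNA5 array were close. The difference was -0.34 (95% confidence interval -0.51 to -0.16), 1.26-fold lower (limma, adjusted p = 0.0148). This call was lost with median scaling only, out of 19 alternative settings (log2 change -0.26, adjusted p = 0.22). The other 5 tested carriers of nucleotides and cofactors were not called. SLC25A17, a carrier of peroxisomes in human cells rather than mitochondria, was at 0.16 (adjusted p = 0.213). SLC25A26, which brings in S-adenosylmethionine, was at -0.16 (adjusted p = 0.23), with -0.22 and 0.02 for its other probes (adjusted p = 0.0855 and 0.932). SLC25A51, the NAD carrier, read 0.12 with one probe and -0.12 with the other (adjusted p = 0.574 and 0.404), and shares most of its sequence with SLC25A52, so its values are uncertain.

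SLC25A1 exports citrate from the matrix for the making of fatty acids and sterols. Its log2 signals were 11.03, 10.85, 11.18, 11.23, 10.95 and 11.28 in mutDFNA5, against 11.39, 11.20, 11.37, 11.63 and 11.68 in wtDFNA5. The groups overlapped, with 2 mutDFNA5 arrays above the lowest wtDFNA5 array. The difference was -0.37 (95% confidence interval -0.57 to -0.17), 1.29-fold lower (limma, adjusted p = 0.0203). The call did not hold without mutDFNA5 replicate 2, wtDFNA5 replicate 4 or wtDFNA5 replicate 5 (adjusted p = 0.054, 0.0527 and 0.0653), nor with median scaling or normexp background correction (adjusted p = 0.203 and 0.0715).

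The other carriers of di- and tricarboxylates did not pass the test. The dicarboxylate carrier SLC25A10 ranged from 8.08 to 8.54 in mutDFNA5 and from 8.26 to 9.06 in wtDFNA5 (log2 change -0.22, adjusted p = 0.241). The oxoglutarate and malate carrier SLC25A11 ranged from 9.20 to 9.58 in mutDFNA5 and from 9.19 to 9.80 in wtDFNA5 (-0.20, adjusted p = 0.219). Leaving out wtDFNA5 replicate 3, the lowest array of all 11 for this gene, gave -0.29 (adjusted p = 0.048). No other setting called SLC25A11. Its change was -0.14 without wtDFNA5 replicate 1 (adjusted p = 0.437) and -0.09 with median scaling (adjusted p = 0.761). SLC25A21, which carries oxoadipate, was at 0.15 (adjusted p = 0.298). Of the 4 tested di- and tricarboxylate carriers 1 was called lower, 3 lay below 0 and 1 above, with a median of -0.21. Over all genes tested 4.92% were called lower and 51.5% lay below 0, with a median of -0.0055. The group median was the lowest of any role group with more than 2 tested genes. That of UCP2 and SLC25A27, a group of 2, was -0.25.

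TIMM29 is a subunit of the TIM22 complex, the translocase that inserts carriers into the inner membrane. It was the only import gene called. Its log2 signals were 10.21, 10.63, 10.53, 10.48, 10.52 and 10.33 in mutDFNA5, against 10.68, 10.70, 10.69, 10.84 and 10.91 in wtDFNA5, with no overlap. The difference was -0.31 (95% confidence interval -0.48 to -0.14), 1.24-fold lower (limma, adjusted p = 0.0224). The call did not hold without mutDFNA5 replicate 1, mutDFNA5 replicate 6 or wtDFNA5 replicate 5 (adjusted p = 0.0581, 0.0542 and 0.0663), nor with median scaling or normexp background correction (adjusted p = 0.378 and 0.0574).

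The other 7 members of the TIM22 complex and its small TIM chaperones were spread on both sides of 0. TIMM22, the channel subunit, had 10.28 ± 0.05 (SD, n = 6) in mutDFNA5 and 10.32 ± 0.04 (SD, n = 5) in wtDFNA5 (log2 change -0.04, interval -0.18 to 0.10). The chaperones that ferry carriers through the intermembrane space gave 0.16 for TIMM10, 0.01 for TIMM9 and -0.12 for TIMM10B. TIMM8A, whose loss causes a syndrome of deafness and dystonia, was at 0.15 (adjusted p = 0.313), with 9.79 ± 0.16 (SD, n = 6) in mutDFNA5 and 9.64 ± 0.14 (SD, n = 5) in wtDFNA5. TIMM8B was at 0.19 (adjusted p = 0.404). TIMM13, the partner of TIMM8A, was detected on 4 mutDFNA5 and 2 wtDFNA5 arrays and lay between 6.79 and 7.60 in mutDFNA5 and between 6.97 and 7.75 in wtDFNA5, which leaves its change (-0.03, adjusted p = 0.917) without a direction.

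In the TIM23 complex 0 of 5 tested genes were called. TIMM21 had the smallest p, with 11.66 to 11.87 in mutDFNA5 and 11.79 to 11.99 in wtDFNA5 (log2 change -0.15, adjusted p = 0.249) and -0.09 for its second probe. TIMM23, the channel itself, gave -0.04 with its brightest probe and between -0.07 and -0.03 with 3 others, none of them called. TIMM23B is a near-identical copy, and signal on these probes can come from either gene. TIMM44, which ties the motor to the channel, was at -0.04, TIMM17A at -0.06 and TIMM17B at 0.13. TIMM50, the receptor subunit, was not detected on any array.

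In the TOM complex 0 of 7 tested genes were called, and TOMM20L was not detected on any array. TOMM5, a small subunit, had the highest log2 change of the 58 genes. It ranged from 11.81 to 12.37 in mutDFNA5 and from 11.46 to 12.01 in wtDFNA5 (log2 change 0.23, adjusted p = 0.185), with 3 of its 6 mutDFNA5 arrays inside the wtDFNA5 range. Without wtDFNA5 replicate 4, the lowest array at 11.46, its log2 change was 0.14. TOMM40, the channel, was at 0.15 (adjusted p = 0.258), and the receptors TOMM20, TOMM22 and TOMM70 were at -0.09, -0.13 and 0.06. TOMM7, whose signal was close to the top of the scale, gave 14.66 ± 0.07 (SD, n = 6) in mutDFNA5 and 14.67 ± 0.05 (SD, n = 5) in wtDFNA5, a difference of -0.005 with an interval of -0.15 to 0.14. TIMMDC1, an assembly factor of complex I, and TOMM34, a cytosolic co-chaperone, carry TIMM and TOMM names but are no translocase subunits. They were at -0.14 and -0.04 (adjusted p = 0.355 and 0.795).

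**Figure D2:**
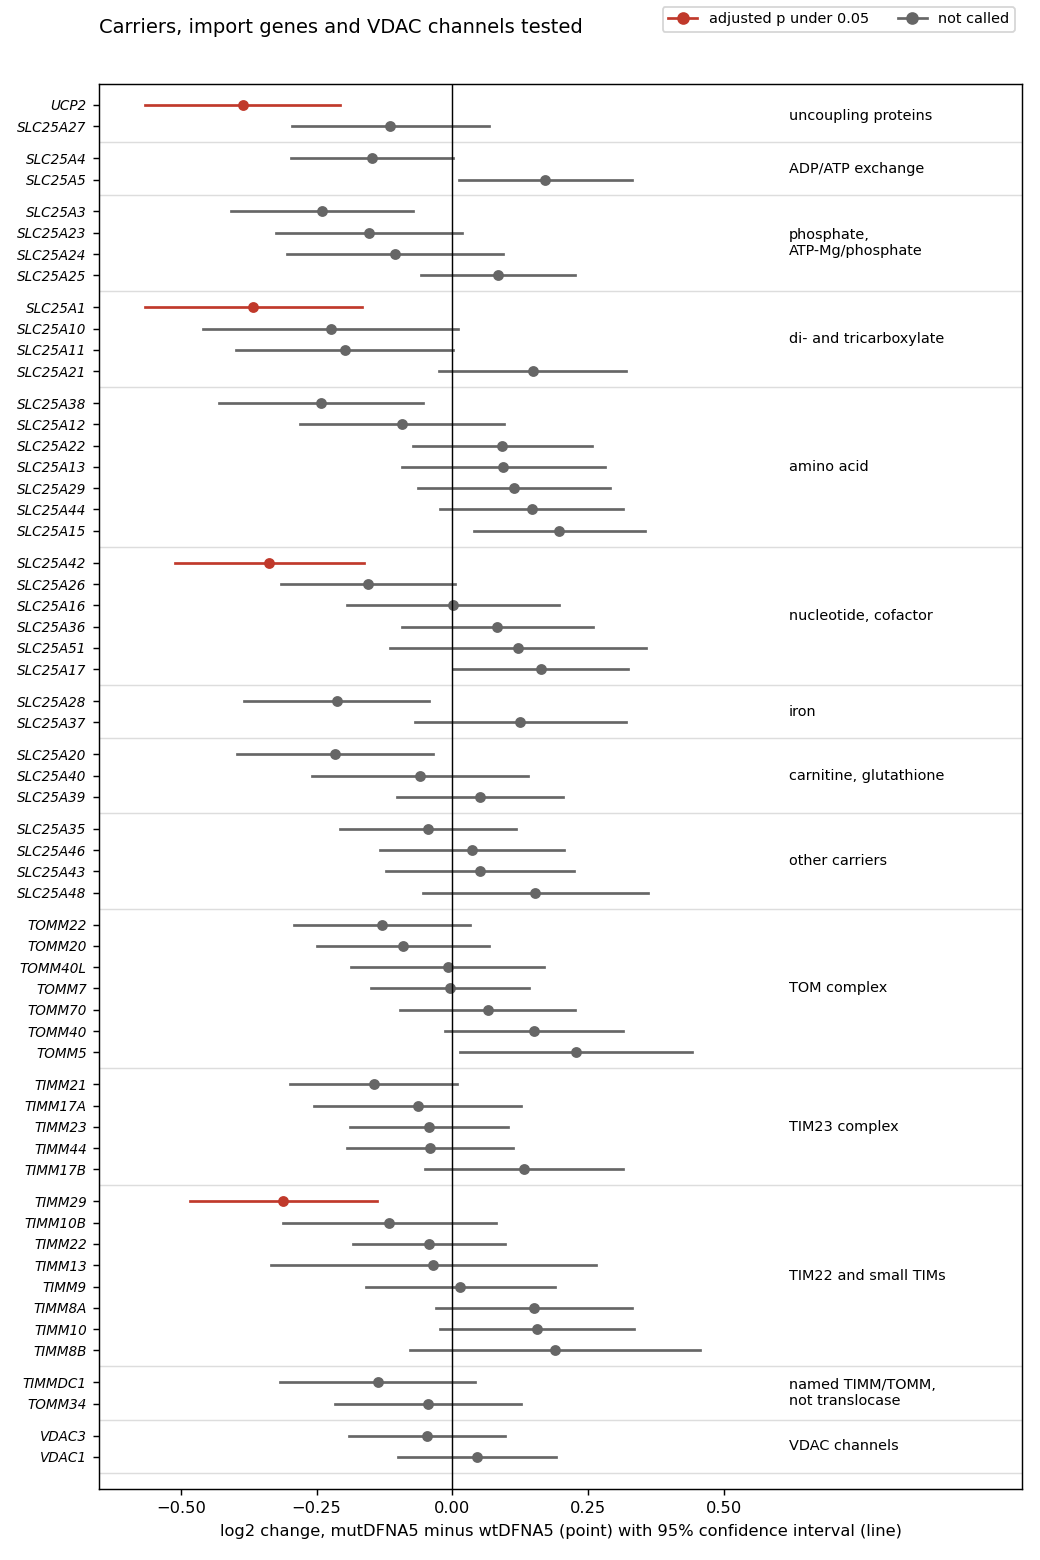
Log2 change, mutDFNA5 minus wtDFNA5, of the 58 tested genes (points) with 95% confidence intervals (lines), grouped by role, with red for adjusted p under 0.05. The 4 red points lie between -0.39 and -0.31, and the remaining genes lie on both sides of 0 in most groups, up to 0.23 for TOMM5.

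Among the carriers that supply oxidative phosphorylation, the 2 tested ADP/ATP carriers went opposite ways and neither was called. SLC25A5 ranged from 14.86 to 15.13 in mutDFNA5 and from 14.70 to 14.96 in wtDFNA5 (log2 change 0.17, adjusted p = 0.18). SLC25A4 ranged from 12.03 to 12.22 in mutDFNA5 and from 12.17 to 12.36 in wtDFNA5 (-0.15, adjusted p = 0.22), with -0.14 for its second probe.

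SLC25A3, which brings in the phosphate for ATP synthesis, was the closest of the remaining genes to the threshold, at 13.61, 13.73, 13.79, 13.83, 13.67 and 13.72 in mutDFNA5 and 13.89, 14.00, 14.22, 13.91 and 13.79 in wtDFNA5. The lowest wtDFNA5 array was reached by 1 mutDFNA5 array and passed by another. The difference was -0.24 (interval -0.41 to -0.07, adjusted p = 0.0685), and it passed the threshold with a trended and robust variance prior (adjusted p = 0.0281) and without wtDFNA5 replicate 5 (adjusted p = 0.0495). Its other probes read -0.10 and 0.17 (adjusted p = 0.475 and 0.273), so the probes disagree in sign. The calcium-regulated ATP-Mg/phosphate carriers SLC25A23, SLC25A24 and SLC25A25 were at -0.15, -0.11 and 0.08, and none was called.

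Of 7 tested amino acid carriers 0 were called, 5 were above 0 and their median was 0.09. SLC25A38, which brings in the glycine for haem synthesis, ranged from 9.60 to 9.78 in mutDFNA5 and from 9.76 to 10.32 in wtDFNA5 (log2 change -0.24, adjusted p = 0.105), and 1 wtDFNA5 array at 10.32 stood above the next at 9.93. Without that array, wtDFNA5 replicate 4, the change was -0.14 (adjusted p = 0.278). The ornithine carrier SLC25A15 ranged from 10.07 to 10.45 in mutDFNA5 and from 9.97 to 10.12 in wtDFNA5 (0.20, adjusted p = 0.114), and its second probe read -0.01. The aspartate/glutamate carriers of the malate shuttle, SLC25A12 and SLC25A13, were at -0.09 and 0.09.

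The iron carrier SLC25A28 (mitoferrin 2) was the fourth gene without overlap, with 9.57, 10.01, 10.00, 9.85, 9.99 and 9.84 in mutDFNA5 and 10.07, 10.03, 10.13, 10.14 and 10.09 in wtDFNA5. Its difference of -0.21 did not pass the test (adjusted p = 0.115), and 3 of the 6 mutDFNA5 arrays were within 0.1 of the lowest wtDFNA5 array. With the brightest probe of each gene, non-overlapping groups were thus seen in 4 of 58 genes (UCP2, SLC25A42, TIMM29 and SLC25A28), all of them lower in mutDFNA5. That is 6.9% of the 58, near the 6.62% of all genes tested, read in the same way. A further probe of SLC25A26, at -0.22, also had groups without overlap, with 7.74 as the highest mutDFNA5 array and 7.78 as the lowest wtDFNA5 array. SLC25A37 (mitoferrin 1) was at 0.13. SLC25A20, which brings in acylcarnitines for fatty acid oxidation, was at -0.22 with one probe and -0.20 with the other (adjusted p = 0.133 and 0.108). The mean of both probes gave -0.21 (adjusted p = 0.0448). The glutathione carriers SLC25A39 and SLC25A40 were at 0.05 and -0.06. SLC25A46, an outer membrane protein of mitochondrial dynamics, was at 0.04, and SLC25A48, a choline carrier, was at 0.15 (adjusted p = 0.379).

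Neither of the outer membrane channels was called. VDAC1 had 13.92 ± 0.06 (SD, n = 6) in mutDFNA5 and 13.87 ± 0.08 (SD, n = 5) in wtDFNA5, a difference of 0.05 (interval -0.10 to 0.19). VDAC3 had 13.84 ± 0.06 (SD, n = 6) in mutDFNA5 and 13.89 ± 0.05 (SD, n = 5) in wtDFNA5, a difference of -0.05 (interval -0.19 to 0.10, adjusted p = 0.745), which turned to 0.03 with median scaling. SLC25A6, SLC25A14, SLC25A31, TIMM23B, TOMM6 and VDAC2 are not analysed here.

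Carriers and import genes were set side by side, with no test, since the members were chosen with results known. Of 34 carriers 3 were lower and 17 lay on either side of 0, with a median of -0.02. Of 22 import genes 1 was lower, 14 lay below and 8 above 0, with a median of -0.04, or -0.02 without TIMMDC1 and TOMM34. These calls are 8.82% of carriers and 4.55% of import genes. Over all genes tested 4.92% were called lower and 4.05% higher, with a median of -0.0055. With median scaling the medians were 0.01 for carriers, 0.06 for import genes and 0.07 for all genes, so the sign of both medians depended on the scaling. In the plot of cumulative shares carriers ran from -0.39 to 0.20 and import genes from -0.31 (TIMM29) to 0.23. Import genes apart from TIMM29 stayed between -0.15 and 0.23.

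**Figure D3:**
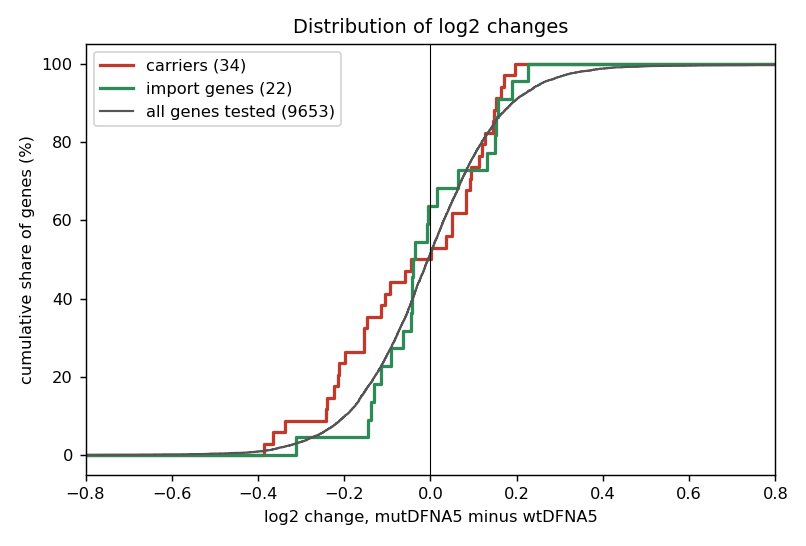
Cumulative share of genes (vertical axis, percent) at or below each log2 change, mutDFNA5 minus wtDFNA5 (horizontal axis), for the 34 carriers, the 22 import genes and all 9653 genes tested. The curves cross near 0, and 17 of 34 carriers, 14 of 22 import genes and 51.5% of all genes lie below 0.

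The precision of the arrays sets what could be seen. The 95% interval of a tested gene was 0.35 wide in the median (0.28 to 0.60), and for 55 of the 58 genes it lay within 0.5 of 0 on both sides. SDs between arrays of a group ran from 0.05 to 0.34 in mutDFNA5 and from 0.04 to 0.34 in wtDFNA5. Of the 15 second probes that passed the filter, in 11 genes, 10 had the sign of the brighter probe and 0 were called. The 17 genes that were not tested include 15 with no probe detected on any array, and the other two were UCP3 and SLC25A30.

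Genes that work beside these proteins were read from lists chosen with the members. Of 21 tested import partners 1 was called lower, 0 were called higher and 17 lay below 0, with a median of -0.08. Over all genes tested 4.92% were called lower and 51.5% lay below 0, with a median of -0.0055. The called gene was MIPEP, a protease that trims imported matrix proteins, which ranged from 8.78 to 9.17 in mutDFNA5 and from 8.96 to 9.37 in wtDFNA5 (log2 change -0.29, adjusted p = 0.0454). Its call was lost in 11 of 19 alternative settings. Partners that were not called included CHCHD4, which oxidises small imported proteins (-0.21, adjusted p = 0.165), SAMM50, the core of outer membrane assembly (-0.16, adjusted p = 0.249), the mitochondrial HSP70 gene HSPA9 (0.07, adjusted p = 0.725) and AGK, a further TIM22 subunit (0.05, adjusted p = 0.741).

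Of 13 tested genes of other mitochondrial transporters and their subunits, outside the SLC25 family, 2 were lower and 1 was higher, beside 4.92% lower and 4.05% higher of all genes tested. In this list 11 lay below 0 and 2 above, with a median of -0.06. Over all genes tested 51.5% lay below 0, with a median of -0.0055. SFXN2, a sideroflexin, had 8.47, 8.48, 8.41, 8.68, 8.40 and 8.24 in mutDFNA5 and 8.87, 8.89, 8.62, 8.99 and 8.84 in wtDFNA5 (log2 change -0.40, adjusted p = 0.00501). MPC2, a subunit of the pyruvate carrier, had 11.34, 11.51, 11.71, 11.41, 11.42 and 11.34 in mutDFNA5 and 11.71, 11.81, 12.04, 11.81 and 11.80 in wtDFNA5 (-0.38, adjusted p = 0.00663). In each of these genes only the highest mutDFNA5 array reached the lowest wtDFNA5 array, and median scaling was the single setting that ended either call. The other subunit, MPC1, was at -0.01 (adjusted p = 0.956). SFXN1, a serine transporter, was higher, with 11.24, 11.17, 10.93, 11.64, 11.23 and 11.34 in mutDFNA5 and 10.94, 11.07, 10.96, 10.98 and 10.78 in wtDFNA5 (0.31, adjusted p = 0.0468). That call was lost in 14 of 19 settings. The calcium uniporter genes MCU and MCUB were at -0.17 and -0.22 (adjusted p = 0.251 and 0.116).

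Of 6 genes whose products bind or work with VDAC 0 were called, 4 lay above 0 and 2 below, with a median of 0.17. Over all genes tested 4.92% were called lower and 4.05% higher, with a median of -0.0055. PPIF, the cyclophilin that regulates the permeability pore, ranged from 8.27 to 8.55 in mutDFNA5 and from 7.97 to 8.26 in wtDFNA5, without overlap (log2 change 0.25, adjusted p = 0.0515). It passed the threshold in 3 of 19 alternative settings. Groups without overlap were seen in 6.62% of all genes tested. The hexokinases HK1 and HK2 were at 0.17 and 0.22 (adjusted p = 0.26 and 0.123). CKMT1A was at 0.17, while TSPO and CKMT1B were at -0.10 and -0.05.

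**Figure D4:**
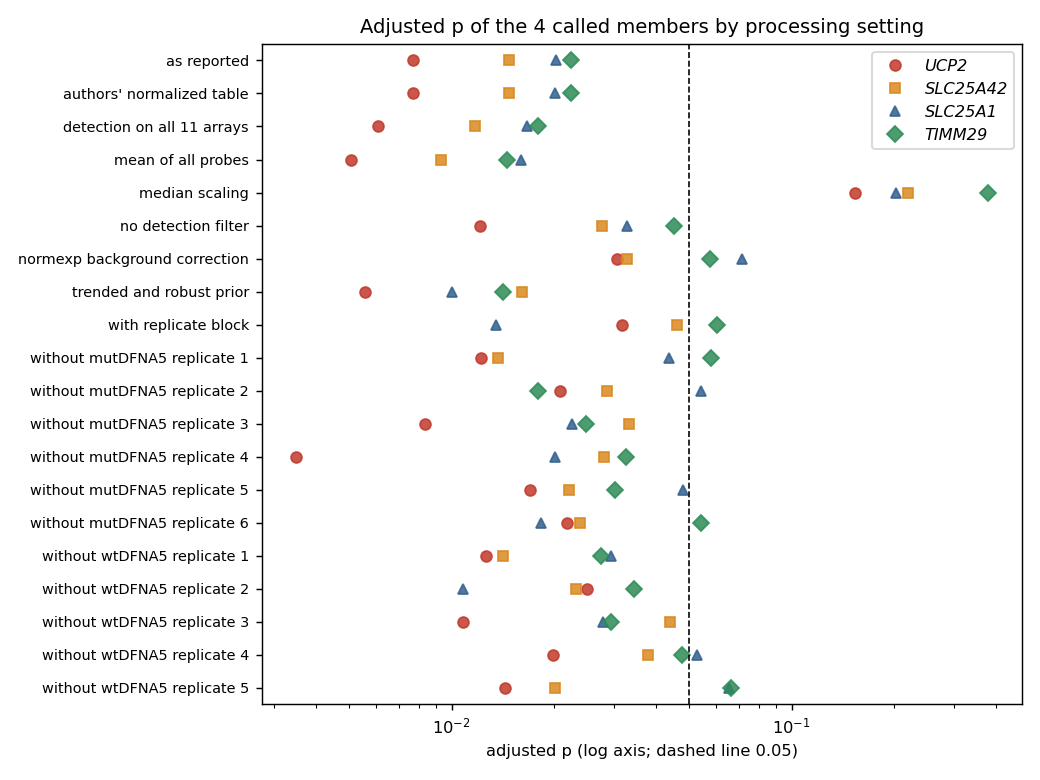
Adjusted p (horizontal log axis, dashed line at 0.05) of UCP2, SLC25A42, SLC25A1 and TIMM29 as reported and under 19 alternative settings (rows). All 4 genes lie right of the line with median scaling, while UCP2 and SLC25A42 lie left of it in each of the other rows.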

How the data were processed

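The authors deposited log2 signals per probe that were not normalized between arrays, each with a detection p-value, and a second table of log2 values that the authors had quantile normalized. The study's methods name beadarray, quality control, quantile normalization and limma, with no background correction. The submitters' processing notes give limma 3.24.4, which is not the version that the methods state. The methods describe the replicates as loaded on the chip, but do not state whether all arrays shared a slide or scan.

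The signals were quantile normalized and tested with limma 3.58.1 in R 4.3.3, mutDFNA5 minus wtDFNA5 over all 11 arrays with no covariate, two-sided, on the 14542 of 42000 probes that passed the detection filter. The normalized values differed from the authors' table by at most 0.0191. Quantile normalization removes a shift shared by most transcripts, and without background subtraction changes of dim probes are understated. The methods describe independent biological replicates. Precision is limited by the number of arrays, and confidence intervals are limma's at 95%. The script was tested on simulated data.

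Probes were named through an annotation of a beadchip version later than that named in the methods, with symbols updated through RefSeq (GRCh38.p14). Of the probes, 27916 had 1 symbol, 7 had several and 14077 were not listed. The probe with the highest mean stood for its gene. The members and lists were chosen with earlier results of these data known. Named genes were UCP2, every called member, the member with the smallest p in each role group, the 2 highest and 2 lowest signals, any member with a called further probe, and in each other list up to 4 called genes or else the one with the smallest p. Further genes were named with their role group after their values were seen. Promoters came from RefSeq (a window was found for 52 of the tested genes), and the CCAAT box was added after the windows had been read. Alternatives were median scaling, normexp background correction (offset 16), the authors' normalized table, detection on all arrays, no detection filter, the mean of all probes of a gene, a trended and robust prior, the replicate number as a block, each array left out, and import genes without TIMMDC1 and TOMM34.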

Additional observations from a re-analysis of the deposited data

Results flagged for a closer look

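A single array stood apart from the rest of its group in 2 of the 44 groups of arrays looked at, over 22 named genes. Chance alone marks about 1 group in 20 in this way. SLC25A48, a choline carrier, had 7.26 in wtDFNA5 replicate 4, against 7.72 to 7.86 in the other wtDFNA5 arrays, and was not called (log2 change 0.15). MIPEP had 8.96 in wtDFNA5 replicate 1, against 9.25 to 9.37 in the other wtDFNA5 arrays. Without that array its log2 change was -0.37 (adjusted p = 0.0119). Without wtDFNA5 replicate 4 that of SLC25A48 was 0.04 (adjusted p = 0.827).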

How the results depend on the processing

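The count of 4 genes lower in mutDFNA5 was 0 with median scaling, 2 with normexp background correction (UCP2 and SLC25A42), 3 with the replicate number as a block, 5 with the mean of all probes and with a trended and robust prior, and 3 to 5 with 1 array left out. It was 4 with the authors' table, with detection on all arrays and without a detection filter. The count of higher genes was 0 in every one of these settings. Median scaling took UCP2 to -0.29 (adjusted p = 0.154), against 0.00769 as reported and 0.00349 to 0.0318 in the other settings. With 1 array left out, UCP2 lay between -0.43 and -0.33, the carrier median between -0.06 and 0.004, and the import median between -0.05 and 0.01. The import median was 0.062 with median scaling, which also moved the median of all genes to 0.07. Over all genes, 475 were lower and 391 higher as reported, 54 and 270 with median scaling, 298 and 259 with the block, and 299 and 279 of 18836 genes without a detection filter, so that the share of lower calls was 54.8% as reported and 16.7% with median scaling. The cause of these shifts was not tested.

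The replicate number as a block leaves out mutDFNA5 replicate 6, which has no partner. It gave UCP2 a log2 change of -0.33 (adjusted p = 0.0318) and ended the call of TIMM29 (-0.29, adjusted p = 0.0603). Deviations of same-numbered arrays correlated between -0.06 and 0.11, and 1 of 5 numbers correlated best with itself, so no effect shared by same-numbered arrays was seen. Whether such arrays were handled together cannot be told from these correlations.

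Genes whose change was near 0 turned sign. VDAC3 was at 0.0315 with median scaling. TIMM13 was at 0.0016 with normexp background correction, at 0.0289 with the block, and between -0.1304 and 0.0706 with 1 array left out, above 0 without mutDFNA5 replicate 5 or 6 or wtDFNA5 replicate 3 or 5. TOMM7 was at 0.025 with the mean of its probes and between -0.0207 and 0.0158 with 1 array left out, above 0 without mutDFNA5 replicate 2 or 5 or wtDFNA5 replicate 3. SLC25A48, TIMM13 and SLC25A27 gave no value when detection on all arrays was required. These dim genes lay near the detection limit, so their log2 changes are not exact sizes.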
